A study of Mus musculus with 4 samples.

Results

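4-hydroxytamoxifen (4OHT) was given to primary mouse keratinocytes that lacked CreER, the drug-activated recombinase it is meant to switch on, and transcript levels were compared with those of the same kind of cells given ethanol, the solvent. The comparison used 2 of the 4 arrays of the study, control 4OHT and control EtOH, each a group of 1 array, and it covered the 7461 measured genes of the 12393 genes with a probe set of their own. All 4 cultures were primary keratinocytes from tail skin of C57BL/6 mice whose Prdm1 gene was floxed, meaning flanked by recognition sites of Cre. The control cells had the floxed gene and no CreER, so by the labels neither control culture had a recombinase. The CKO cells had the floxed gene with CreER, and they too received either ethanol (CKO EtOH) or 4OHT (CKO 4OHT). Cells were grown without serum on rat collagen I in CnT-07 medium, had the drug or the solvent in the medium from day 1 until day 3, when the medium was renewed, and were collected on day 5. The control EtOH, control 4OHT and CKO EtOH cells therefore all carried the floxed gene, and the last of them served as a measure of how far a second solvent culture can differ. That measure also holds the difference between animals with and without CreER, because the label of each genotype names its own mice. The number of mice behind each culture, the promoter that drives CreER and the dose of the drug were not given in the labels. With 1 array a group no error could be estimated, no difference could be tested, and no value below carries an SD or a p-value.

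4OHT is the active metabolite of tamoxifen and binds estrogen receptors, where it blocks or mimics estrogen depending on the tissue. Studies with CreER use it to start recombination, and cells without CreER are the control for effects of the drug itself. Keratinocytes divide in the basal layer of the epidermis and, as they move up, stop dividing and make first the suprabasal keratins and then the proteins, proteases and lipids of the cornified envelope, the crosslinked shell of the dead outer cell. Many of these late genes lie side by side in the epidermal differentiation complex.

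The arrays had median intensities between 19.95 and 20.22, since the deposited normalization brings them to a common scale. The cells matched their label. Of 12 defining markers of keratinocytes, 11 were measured, and the summed intensity of all 12 was between 17400 and 18290 on the 4 arrays. Markers of other cells were mostly under the level filter: 6 of 16 of fibroblasts reached the level filter (intensity summed over all with a probe set 239 to 267 on the 4 arrays), as did 6 of 11 of melanocytes (677 to 936), 1 of 10 of endothelium (123 to 129), 3 of 15 of Langerhans cells and macrophages (262 to 347), 2 of 9 of T cells (88.1 to 104) and none of neutrophils and mast cells. So did 9 of 26 of the hair follicle (609 to 685), 2 of 10 of Merkel cells and nerve (236 to 278) and 1 of 11 of muscle and fat cells (177 to 322). The sums over the fibroblast, melanocyte, Langerhans cell, hair follicle and muscle lists were 263, 936, 347, 668 and 322 in control 4OHT against 239, 809, 336, 609 and 244 in control EtOH, and their part in the results was not tested. In a whole culture, fewer cells of a kind and less RNA per cell cannot be told apart.

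The gene flanked by the Cre sites came first. Prdm1, which encodes the transcriptional repressor Blimp-1, had an intensity of 20.7 with ethanol and 52.4 with 4OHT in control cells, and of 17.0 with ethanol and 6.43 with 4OHT in CKO cells. It was highest in the control cells that had received the drug, 1.34 (log2) above their solvent culture and 1.63 above the CKO solvent culture. In CKO cells the array with the drug was 1.40 below the array with ethanol. Esr1, the estrogen receptor alpha gene, was at 11.3 and 18.2 in the same order in control cells, and at 54.3 and 44.4 in CKO cells. Both arrays labelled as carrying CreER, a fusion of Cre with part of an estrogen receptor, were above both arrays labelled as lacking it.

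With the drug, 95 genes were at least 2-fold higher in control cells, 1.27% of those measured, and 18 were at least 2-fold lower, 0.241%. "Higher" and "lower" below mean past this 2-fold line on the arrays compared. The CKO EtOH array differed far less from control EtOH, with 4 genes higher, 0.0536%, and no gene lower, 0%. These 4 were Esr1 (2.26), Saa3 (1.44), Saa1 (1.41) and Wfdc18 (1.05). The spread of log2 differences over all measured genes was 0.344 (SD over genes) for the drug and 0.211 for the second solvent culture, around medians of -0.044 and -0.027. Both comparisons use the control EtOH array, so a value of that array alone that is off moves both the same way.

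A stricter count therefore asked how many genes of control 4OHT lay at least 2-fold beyond both solvent arrays. There were 42 above both, 0.563% of measured genes, and 2 below both, 0.0268%. With control EtOH in the place of the drug array this count gave 0 above and 3 below the other arrays, and with CKO EtOH it gave 1 and 0. All 95 higher genes lay above both solvent arrays by some distance, 42 of them by at least 2-fold and 53 by less. All 18 lower genes lay below both, 2 by at least 2-fold and 16 by less. The lower side depended on the settings: with 16 added to every intensity before log2, 63 genes were higher and 0 lower, and with CKO EtOH as the solvent array 49 were higher and 3 lower. At 1.5-fold the drug gave 295 genes higher, 3.95%, and 292 lower, 3.91%, and the second solvent culture gave 44 higher, 0.59%, and 56 lower, 0.751%.

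**Figure D1:**
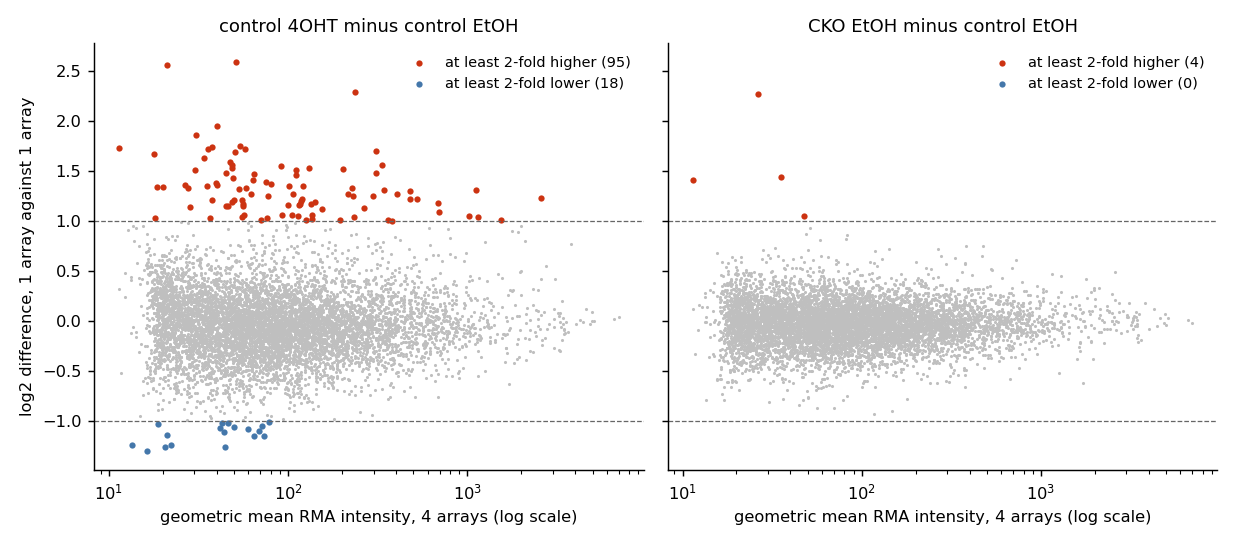
Log2 difference of each of 7461 measured genes (vertical axis) against its geometric mean intensity over the 4 arrays (horizontal axis, log scale), for control 4OHT minus control EtOH at the left and for CKO EtOH minus control EtOH at the right. Red points are the genes at least 2-fold higher (95 and 4), blue points those at least 2-fold lower (18 and 0), and dashed lines mark 2-fold. The red genes of the left panel lie at all levels, while the blue ones lie at low and middle levels.

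Higher genes were spread over the range of levels, with 17, 29, 23 and 26 of them in 4 equal bins of measured genes from dimmest to brightest. The same bins held 6, 11, 1 and 0 of the lower genes. Of the 95 higher genes, 3 (Rnase2b, Saa1 and Ppp6r2) reached the level filter through the control 4OHT array alone, so that their being measured at all rests on that array. The other 92 would have been measured without it. Just inside the 2-fold line lay Igfbp3 (1.00), Gjb2 (1.01), Klhdc2 (-1.01) and Bcl2l11 (-1.01). Just outside lay Cxcl12 (0.99), Scnn1g (0.98), Gins1 (-0.997) and Tk1 (-0.99).

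The 3 genes that differed most encode antimicrobial proteins, and the next 3 a pump, a cadherin and a serpin. Defb6, a beta-defensin, had an intensity of 25.4 with ethanol, 152 with 4OHT and 48.4 in the CKO solvent culture, a difference of 2.58 on the log2 scale from its own solvent culture. Rnase2b, a secreted ribonuclease of the eosinophil-associated family, was at 19.4, 114 and 14.6 on the same arrays (2.56). Defb3, a further beta-defensin, was at 99.6, 487 and 138 (2.29). For all 3 the drug culture stood well above both solvent cultures, by 1.65, 2.56 and 1.82. Atp12a, the catalytic subunit of a proton and potassium pump, was at 17.1 and 18.9 in the solvent arrays and 66.2 with the drug (1.95). Dsc1, the desmosomal cadherin of the upper layers, was at 18.5 and 28.6 against 66.8 (1.86). Serpinb11, a clade B serpin, was at 31.7 and 48.5 against 107 (1.75). In these last 3 genes the CKO solvent culture was the higher of both solvent cultures, and the drug culture was more than 2-fold above it.

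**Figure D2:**
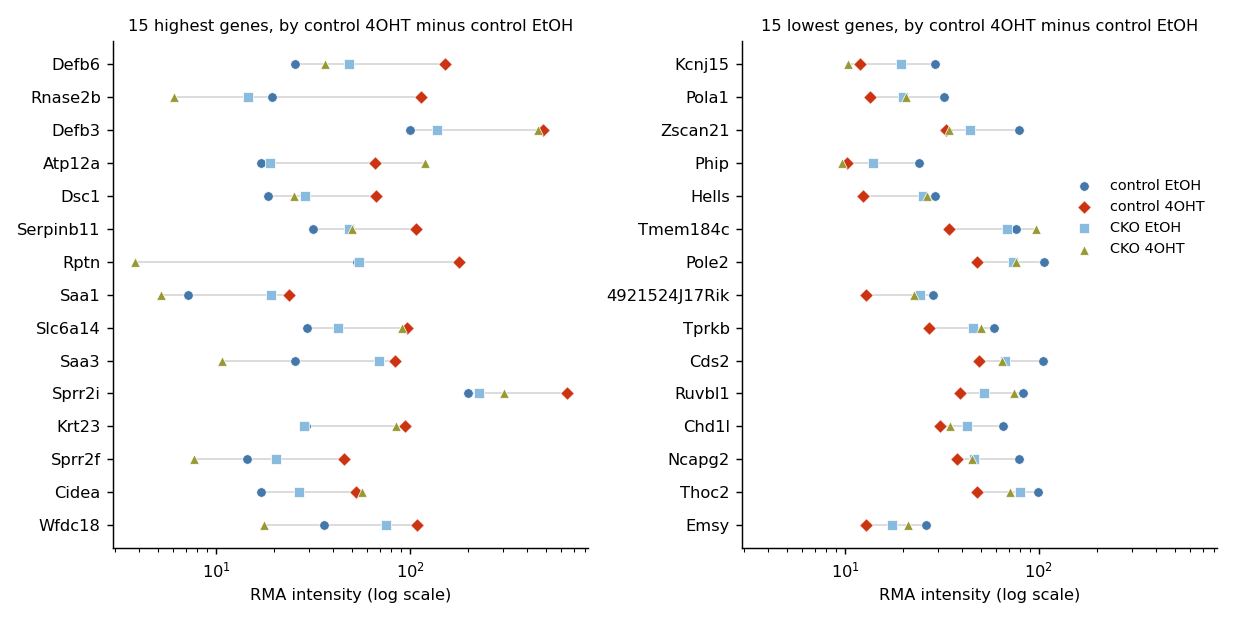
RMA intensity (log scale) of the 15 genes with the highest and the 15 with the lowest difference between control 4OHT and control EtOH, 1 point per array. Red diamonds are control 4OHT, dark blue circles control EtOH, light blue squares CKO EtOH and olive triangles CKO 4OHT. At the left the red diamond lies to the right of both blue symbols in each gene, from 23.7 for Saa1 to 644 for Sprr2i, and at the right it lies to their left.

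Genes of keratinocyte differentiation made up the largest block. The lists for suprabasal keratins and early differentiation, S100-fused proteins, small proline-rich proteins, late cornified envelope proteins and envelope scaffold together held 38 measured genes, of which 21 were higher and none was lower with the drug. Their median difference was 1.02, where all measured genes had -0.044, and 37 of the 38 differences were positive. In CKO EtOH the median of the same 38 genes was 0.14. Of the 38, 14 lay at least 2-fold above both solvent arrays. Over all measured genes 1.27% were higher and 0.563% lay that far above both. At least 1.5-fold higher were 33 of the 38 with the drug, where 3.95% of measured genes were, and 2 of the 38 in the second solvent culture, where 0.59% were.

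The small proline-rich proteins are cytosolic precursors that transglutaminases crosslink into the envelope. Of 16 listed, 9 had a probe set and 8 were measured, 5 of them higher and none lower, around a median of 1.11 (1.01 over all 9). Sprr2i had an intensity of 199 with ethanol, 644 with 4OHT and 228 in the CKO solvent culture, a log2 difference of 1.69 from its own solvent culture. Sprr2f was at 14.4, 45.9 and 20.4 on these arrays. Sprr2k was at 45.6, 105 and 54.0, and Sprr2d, the brightest of the higher members, at 1279, 2579 and 1405. The pseudogene Sprr2j-ps, at 31.1, 87.0 and 44.9, completes the 5. Sprr1b, Sprr2h and Sprr1a differed by 0.89, 0.79 and 0.77 and did not reach 2-fold. Sprr2 genes are closely related copies whose probe sets can share targets, so single members are less certain than the family. Promoter stretches of 4 of them are printed here because each holds the AP-1 motif TGANTCA (N is any base, either strand), which Fos and Jun proteins bind. Capitals mark the motif in 90 bases upstream of the RefSeq start site of each gene on GRCm38.p6, plus strand, at chr3:92338890-92338979, chr3:92364937-92365026, chr3:92407741-92407830 and chr3:92432332-92432421.
Sprr2d: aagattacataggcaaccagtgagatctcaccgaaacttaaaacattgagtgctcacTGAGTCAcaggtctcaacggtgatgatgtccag
Sprr2f: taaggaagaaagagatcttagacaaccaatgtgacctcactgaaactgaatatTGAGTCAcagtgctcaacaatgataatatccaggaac
Sprr2i: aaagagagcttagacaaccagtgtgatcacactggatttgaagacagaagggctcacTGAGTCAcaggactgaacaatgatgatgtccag
Sprr2k: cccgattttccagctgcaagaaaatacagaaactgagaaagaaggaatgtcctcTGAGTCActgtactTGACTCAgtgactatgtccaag
The motif began 193, 197, 193 and, for the farther of 2 in Sprr2k, 196 bases before the start site.

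The late cornified envelope proteins join the envelope in the last step of differentiation. Of 21 listed, 11 had a probe set and 9 were measured, of which 6 were higher, none was lower, and the median was 1.06 (1.04 over all 11). All 6 lay at least 2-fold above both solvent arrays, because the CKO solvent culture was at or below control EtOH for each (median of the list -0.21 there). Lce1d was at 58.2 in both solvent arrays and 168 with the drug (1.53). Lce1b was at 42.0, 109 and 36.4 in control EtOH, control 4OHT and CKO EtOH (1.38), and Lce1a2 at 125, 301 and 97.3 (1.27). Lce1i, Lce1a1 and Lce1h differed by 1.12, 1.06 and 1.04, and Lce1f, Lce3a and Lce3c by 0.95, 0.86 and 0.74. The differences of this family thus ran in a narrow band, and its probe sets too can share targets between copies. A second probe set of Lce1a1 gave 1.43.

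Of the S100-fused proteins, long repetitive proteins of the granular layer, only Rptn and Hrnr passed the level filter, and both were higher. Over all 4 with a probe set the median was 0.72. Rptn, which encodes repetin, was at 53.4 with ethanol, 178 with 4OHT and 54.5 in the CKO solvent culture (1.74). Hrnr, which encodes hornerin, was at 31.4, 89.6 and 28.2 (1.51). In both genes the solvent arrays were close to each other and the drug array lay far outside them.

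The scaffold and crosslinking proteins of the envelope had 6 higher and no lower members among 11 measured, with a median of 1.01, which was 0.64 over all 15 with a probe set. Tgm1, the transglutaminase that forms the crosslinks, was at 63.3 with ethanol, 180 with 4OHT and 67.2 in the CKO solvent culture (1.51). Cdsn, the adhesion protein corneodesmosin, was at 201, 559 and 213 (1.47). Cst6, the cystatin that holds epidermal proteases in check, was at 35.9, 92.8 and 39.5 (1.37). Each of these 3 was at least 2-fold above both solvent cultures. Scel, Asprv1 and Ppl, that is sciellin, the filaggrin-processing protease SASPase and periplakin, differed by 1.32, 1.17 and 1.01 from control EtOH but by less than 1 from CKO EtOH. Lor, which encodes loricrin, the main envelope protein, was at 110, 151 and 110 (0.47).

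Suprabasal keratins and other early differentiation genes had fewer members past 2-fold. Of 8 measured suprabasal keratins and early differentiation genes, 2 were higher, Krt80 (1.25) and Krtdap (1.04), the gene of a secreted peptide of differentiating cells. The median was 0.80 against control EtOH (0.73 over all 10 with a probe set) and 0.33 against CKO EtOH, since the second solvent culture lay between the other arrays (0.38 above control EtOH). Krt1 and Krt10, the keratin pair of the first suprabasal layers, differed by 0.86 and 0.75. Krt23, a keratin listed with the wound-activated and simple-epithelial ones, was at 29.2 with ethanol, 94.3 with 4OHT and 28.3 in the CKO solvent culture (1.69), and was the only higher gene of the 9 measured in that list (median 0.22). Krt6a, Krt16 and Krt17, the keratins of wounded epidermis, differed by 0.09, 0.42 and -0.01.

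**Figure D3:**
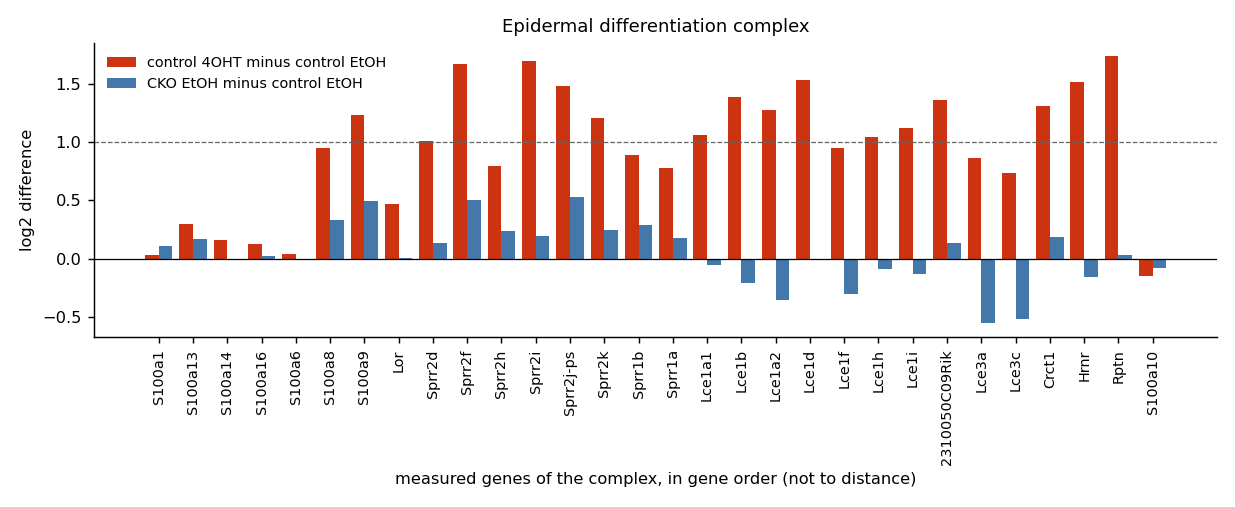
Log2 difference from control EtOH of the 30 measured genes of the epidermal differentiation complex, in gene order and not to distance. Red bars are control 4OHT, blue bars CKO EtOH, each 1 array against 1 array, and the dashed line marks 2-fold higher. The red bars pass the line in 16 genes, from Sprr2 through Lce to Rptn and in S100a9, and stay near 0 for S100a1, S100a6, S100a14, S100a16 and S100a10.

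Many higher genes were neighbours on the chromosome. The epidermal differentiation complex on chromosome 3, taken from S100a10 to S100a1, had 30 measured genes, of which 16 were higher and none lower, with a median of 1.03 (0.03 in CKO EtOH). It held 16.8% of the higher genes and 0.402% of all measured genes that could be placed. Of its 16 higher genes, 12 lay at least 2-fold above both solvent arrays. Besides the families above, Crct1 (642 with ethanol, 1593 with 4OHT and 730 in the CKO solvent culture) and 2310050C09Rik (22.4, 57.7 and 24.6) were among them, both 2-fold above both solvent arrays. At the S100 end of the complex S100a9 was higher (1.23) and S100a8, its partner in the alarmin calprotectin, was at 0.95. The other 5 measured S100 genes at that end ran from 0.03 to 0.30, and S100a10, at the far end beyond Rptn, was at -0.15. In all, 31 of the 95 higher genes had another higher gene as next neighbour among the measured genes, in 11 runs of up to 4 genes. Neighbours in these runs are often gene copies, so a run is not a set of independent genes.

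Serine proteases and protease inhibitors of the outer epidermis followed. Of 12 measured kallikreins, proteases and inhibitors, 5 were higher and none was lower (median 0.87, and 0.65 over all 14 with a probe set). Klk8 was at 279 with ethanol, 651 with 4OHT and 289 in the CKO solvent culture (1.22). Klk6, Klk7, the chymotrypsin-like enzyme that cleaves corneodesmosin, and Klk11 differed by 1.19, 1.05 and 1.03. Wfdc12, an inhibitor with a whey acidic protein domain, differed by 1.55, and it was 0.69 above CKO EtOH. In the kallikrein cluster of chromosome 7, 4 of 6 measured genes were higher. Klk8 alone of the list lay 2-fold above both solvent arrays. Of 8 measured clade B serpins, Serpinb11 alone was higher (median 0.48, and 0.22 over all 11).

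Lipid and junction genes of the barrier gave smaller differences. Of 17 measured genes of barrier lipid synthesis and transport, 4 were higher and none was lower (median 0.47, and 0.44 over all 22). Alox12b, the lipoxygenase that acts on barrier ceramides, was at 15.6 with ethanol, 39.4 with 4OHT and 17.4 in the CKO solvent culture (1.33). Degs2 (1.15) adds the hydroxyl group of phytoceramides, Ugcg (1.15) makes glucosylceramide and Elovl4 (1.03) makes very long fatty acids. Other probe sets of Ugcg gave 0.27 and 0.93, and one of Elovl4 gave 1.28. Of 9 measured tight and gap junction genes, 3 were higher (median 0.48, and 0.28 over all 16 with a probe set): Gjb6 (1.53) and Gjb2 (1.01), neighbouring connexin genes, and Cldn4 (1.25), a claudin of upper layers. The second solvent culture was 0.62, 0.49 and 0.57 above the first for these genes, so that none lay 2-fold above both. Of 9 measured desmosome genes, Dsc1 alone was higher (median 0.41, and 0.48 over all 10), and the related cadherins Dsc3 and Dsc2 were at 0.90 and 0.59.

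Antimicrobial genes had 9 higher and no lower members among 13 measured, with a median of 1.47. Of the 9, Rnase2b and Saa1 reached the level filter through the control 4OHT array alone, so this count partly rests on that array. Over all 27 with a probe set, 14 of which were no higher than 18.7 on any array, the median was 0.50. Besides Defb6, Rnase2b, Defb3 and Wfdc12 the higher members were Saa1, Saa3, Defb4, Lcn2 and Lpo, the last 3 named to complete the count. Saa1 and Saa3, acute-phase proteins, were at 7.18 and 25.6 in control EtOH and 23.7 and 84.1 in control 4OHT. They were also at 19.1 and 69.5 in CKO EtOH, so that the drug array was 0.31 and 0.27 above the nearer solvent array. The median of the list was 0.48 in the second solvent culture, the largest shift there of any list described, and it was 0.56 when the drug array was set against CKO EtOH. Defb6, Rnase2b and Defb3 were the 3 members 2-fold above both solvent cultures. Defb4, Defb6 and Defb3 lie side by side on chromosome 8 and were the 3 measured genes of that cluster. Promoter stretches of the leading defensin pair are printed because both hold the C/EBP motif TTGCNNAA (either strand). Capitals mark it in 90 bases upstream of the RefSeq start (GRCm38.p6, plus strand), at chr8:19225245-19225334 and chr8:19293115-19293204.
Defb6: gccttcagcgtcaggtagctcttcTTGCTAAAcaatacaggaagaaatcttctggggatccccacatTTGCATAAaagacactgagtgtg
Defb3: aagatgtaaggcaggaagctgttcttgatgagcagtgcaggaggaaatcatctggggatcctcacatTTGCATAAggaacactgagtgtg

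The IL-1 and IL-36 family, cytokines made by keratinocytes, had 5 higher and no lower members of 14 measured, with a median of 0.82 (0.77 over all 15). The median was 0.415 when the drug array was set against CKO EtOH. Of the 5, only 2, Il1f5 and Il1f6, lay 2-fold above both solvent arrays. Il1f6, Il1f8 and Il1f9, older names of the IL-36 agonists, were at 25.9, 33.0 and 146 in control EtOH and at 66.0, 75.1 and 351 in control 4OHT. Il1f5, the antagonist of the IL-36 receptor, was at 81.9, 225 and 101 in control EtOH, control 4OHT and CKO EtOH (1.46), although a dimmer probe set of it gave 0.41. Il1rn, the IL-1 receptor antagonist, was at 40.0, 100 and 70.0 (1.32), and its other probe sets gave 0.99 and 1.81. Agonists and antagonists of the IL-36 receptor were thus higher together, and these 5 were 5 of the 6 measured genes of their cluster on chromosome 2. Il1a and Il18 differed by 0.20 and 0.87. None of 12 other measured epithelial cytokines and chemokines passed 2-fold in either direction (median 0.15), and 13 more were under the level filter. Over all measured genes 1.27% were higher and 0.241% lower, so none of 12 is near the general share. Cxcl16 and Cxcl14, the brightest of the 12, differed by 0.53 and 0.05.

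Ion transport genes leaned upward, mostly by less than 2-fold. Of 20 measured pumps and channels 3 were higher and 1 lower, with a median of 0.34 and 17 positive and 3 negative differences. Besides Atp12a, Slc5a1, a sodium and glucose carrier, was at 35.9 with ethanol, 96.7 with 4OHT and 50.7 in the CKO solvent culture (1.43), and Clic3, an intracellular chloride channel protein, at 69.7, 178 and 79.9 (1.35). Kcnj15, an inward rectifier potassium channel, was the lowest of all measured genes, at 29.1, 11.9 and 19.5 (-1.29).

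Of 28 measured transcription factors of epidermal differentiation, Prdm1 alone passed 2-fold, and the median was 0.19. The next were Ovol1 (0.91), Ehf (0.80), Hopx (0.80) and Grhl1 (0.79), all regulators known from differentiating epidermis, and the lowest was Bnc1 (-0.70), a factor of basal cells. Basal keratinocyte and hemidesmosome genes had no member past 2-fold among 23 (median -0.16), with 16 negative and 7 positive differences. None of 23 is near the share over all measured genes, 1.27% higher and 0.241% lower. Krt14 was at 6587 with ethanol, 6663 with 4OHT and 6624 in the CKO solvent culture, and Krt5 at 3774, 3455 and 3432. The basal keratins, near the top of the range of these arrays, thus differed by no more than 0.14 between these 3 cultures. Itga6 and Itga3, the integrin chains of the basal surface, differed by -0.66 and -0.59.

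Genes of DNA replication lay on the other side of zero. Of 46 measured genes of replication and nucleotide synthesis, 3 were lower, none was higher, and 44 differences were negative around a median of -0.53. In the second solvent culture the median of this list was also negative, -0.31, and against CKO EtOH the drug array was at -0.19. Pola1, the catalytic subunit of the polymerase that primes new strands, was at 32.2 with ethanol, 13.4 with 4OHT and 20.0 in the CKO solvent culture (-1.26). Hells, a chromatin remodeller of dividing cells, was at 29.1, 12.4 and 25.1 (-1.23), and Pole2, a subunit of the leading-strand polymerase, at 106, 48.1 and 73.6 (-1.14). Hells alone of these lay 2-fold below both solvent cultures. Gins1, Tk1, Cdt1, Mcm5 and Mcm6, which act in origin licensing, replisome assembly and thymidine supply, ran from -0.91 to -0.997. Brca1 and Ccne1 were the positive members (0.32 and 0.23).

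Genes of mitosis and the spindle had no member past 2-fold among 48 and a median of -0.27 (-0.19 in CKO EtOH). None of 48 is near the share over all measured genes, 1.27% higher and 0.241% lower. Pttg1 and Ube2c, the brightest, differed by -0.12 and -0.16, and Mki67, a marker of dividing cells, by -0.29. Joined, replication and mitosis genes numbered 94, of which 87 were negative (median -0.36, and -0.21 in CKO EtOH). At least 1.5-fold lower were 27 of the 94 with the drug, where 3.91% of measured genes were, and 6 of the 94 in the second solvent culture, where 0.751% were. Of 30 G1 regulators and p53 targets none passed 2-fold by its representative probe set (median -0.09), which is also near the general share. Ccnd2, which encodes cyclin D2, differed by -0.20 on that probe set and by -0.59 to -1.10 on its other 5, so its size is uncertain. Cdkn1a, the p21 inhibitor that p53 induces, differed by -0.17.

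The lower genes were few, and only Hells and Tmem184c, a membrane protein at 75.9 with ethanol, 34.2 with 4OHT and 68.4 in the CKO solvent culture (-1.15), lay 2-fold below both solvent cultures. Phip, a bromodomain protein, was at 24.1 with ethanol and 10.2 with 4OHT (-1.24), and of 27 measured chromatin genes it and Hells were the lower ones (median -0.22). Zscan21 (-1.26), a zinc finger protein, gave -0.30 and -0.44 on other probe sets, and Thoc2 (-1.05), of the mRNA export complex THO, gave -0.10. Cds2, an enzyme of phospholipid synthesis, was at -1.10 on its brightest probe set and at 0.54, 0.20 and 0.01 on its other 3, so no direction can be given for it. The next furthest below both solvent arrays was 4921524J17Rik (-1.14), at -0.93 from the nearer one. Cotl1 and Ints7 came after it and differed by -0.84 and -0.96 from control EtOH. The other probe sets of Cotl1 ran from -0.37 to 0.08 and those of Ints7 from -0.09 to 0.19. Among the rest of the lower genes were Ruvbl1 (-1.07) and Chd1l (-1.07), ATPases of chromatin remodelling, Ncapg2 (-1.05), a condensin subunit, Tprkb (-1.11) and Emsy (-1.03). Further probe sets were set only beside genes named by rule, of which 73 were past 2-fold, and 11 of these 73 had further measured ones. Of those 16 probe sets, 13 had the same sign as the first, 3 (all of Cds2) the opposite one, and 5 were also past 2-fold.

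**Figure D4:**
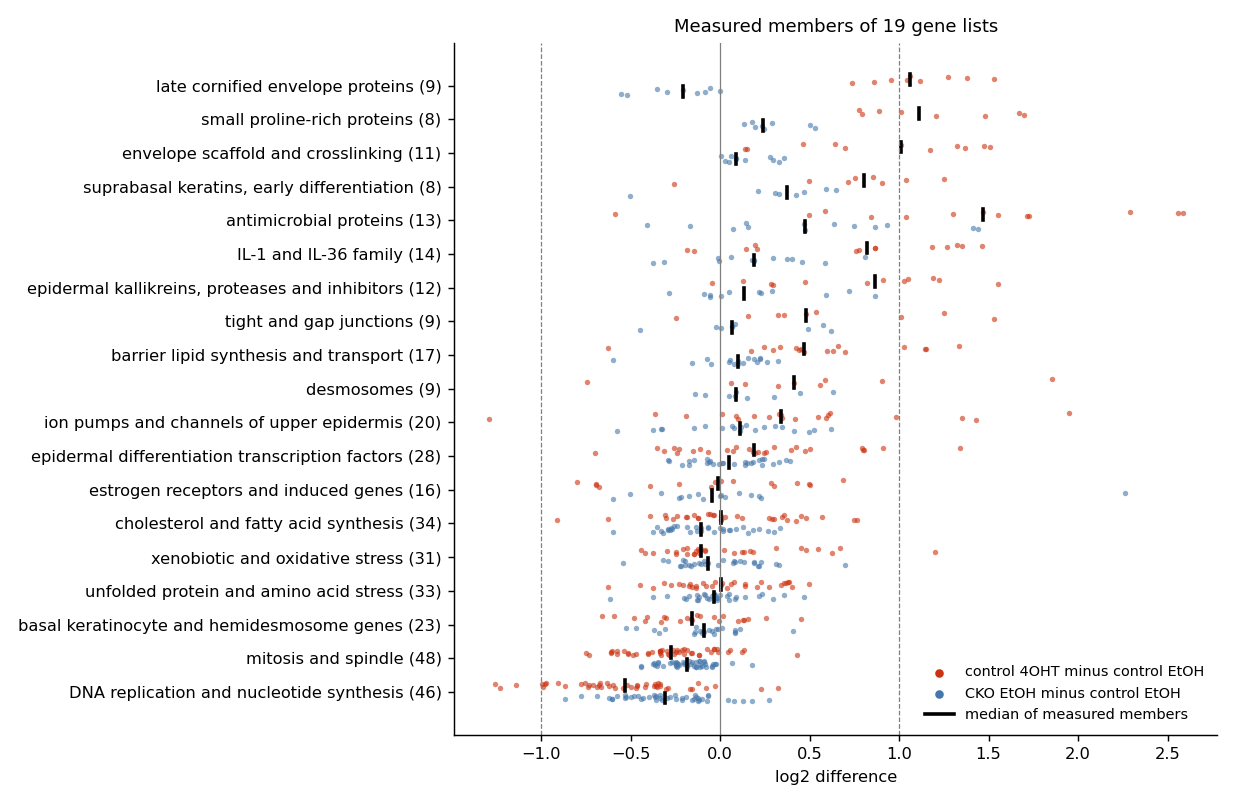
Log2 difference from control EtOH for the measured members of 19 gene lists, with the number of measured members in brackets. Red points are control 4OHT, blue points CKO EtOH, 1 point per gene, and black bars are medians. The red bar of the late cornified envelope proteins stands at 1.06 with the blue one at -0.21, while the bars of DNA replication stand at -0.53 and -0.31 and those of cholesterol synthesis close to 0.

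The lists for estrogen receptors, which the drug binds, for cholesterol and fatty acid synthesis, for lysosomes and for the xenobiotic response together held 1 gene past 2-fold. Over all measured genes 1.27% were higher and 0.241% lower, so this is near the general share and sets these lists apart in neither direction. The list of estrogen receptors, coregulators and classical estrogen-induced genes had no member past 2-fold among 16 measured (median -0.01), with 8 positive and 8 negative differences. Its brightest members Ctsd, the lysosomal protease cathepsin D, and Xbp1 differed by 0.28 and 0.49, and other probe sets of Xbp1 ran from -0.32 to 0.37. Nrip1 and Igfbp4 differed by -0.80 and -0.69. Of 34 measured genes of cholesterol and fatty acid synthesis, a pathway with enzymes that tamoxifen-like drugs can bind, none passed 2-fold (median 0.003), and Hmgcs1 and Fdps differed by -0.06 and -0.04. Of 28 lysosome genes none passed 2-fold (median 0.12), with Ctsl at 0.30 and Npc2 at -0.02 (0.38 on a second Npc2 probe set). Aldh3a1, an aldehyde dehydrogenase, was at 73.4 with ethanol, 169 with 4OHT and 119 in the CKO solvent culture (1.20), and was the only one past 2-fold of 31 measured xenobiotic and oxidative stress genes (median -0.11). Nqo1 and Hmox1, commonly read as markers of oxidative stress, differed by -0.11 and 0.55.

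With 1.27% of all measured genes higher and 0.241% lower, a list of this size with no member past 2-fold is near the general share. Stress and signalling lists likewise had few members past the line. None passed it among 33 unfolded protein and amino acid stress genes (median 0.01; Hspb1 0.04 and Hspa8 -0.62), 19 NF-kB genes (0.14; Nfkbia 0.04 and Sod2 -0.14), 29 EGF family and ERK genes (0.19; Ier3 0.37 and Epgn 0.20) or 16 interferon and antigen processing genes. The last had a median of 0.34, with H2-K1 at 0.43 and H2-D1 at 0.36, and the second solvent culture stood at 0.23. Hspa8 was at 2142 in control EtOH, 1388 in control 4OHT and 1399 in CKO EtOH, so on this probe set the drug array matched the second solvent array. Its other probe sets gave -0.33 and -0.35. The median was -0.05 for 18 Notch and Wnt genes, with Ctnnb1 at -0.07 and Notch1 at -0.76. Other probe sets of Ctnnb1 gave 0.67 and 0.39, and a second one of Notch1 gave -0.13. For 19 TGF-beta genes the median was -0.07, with Tgfbr2 at -0.03 and Smad4 at -0.09. A second probe set of Tgfbr2 gave 0.31, and other ones of Smad4 gave -0.28 and 0.28. For 16 clock genes the median was -0.07, with Csnk1d at -0.49 by a probe set whose other readings ran from -0.31 to 0.39, and Bhlhe40 at -0.11. Ribosome biogenesis had a median of -0.26 with 27 of 31 negative (Npm1 -0.17 and Nop10 0.06), and 43 respiratory chain genes one of -0.07 (Uqcrb -0.07 and Cox6a1 -0.09). Of 27 glycolysis and hypoxia genes Egln3 (1.15), an oxygen sensor, and Aldoc (1.01), an aldolase, were higher (median 0.05). They lay 0.77 and 0.68 above CKO EtOH, and a second probe set of Egln3 gave 0.63. Crabp2 (1.17), a retinoic acid carrier, was the higher one of 15 retinoid, vitamin D and PPAR genes (median 0.19), and was 2-fold above both solvent arrays. Cidea (1.63), a lipid droplet protein of sebocytes and fat cells, was the higher one of 10 sebocyte lipid genes (median 0.07).

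In total 59 of the 95 higher genes were in at least 1 of the lists and 36 in none. Slc6a14, an amino acid transporter, was the highest of those in none, at 29.4 with ethanol, 96.8 with 4OHT and 42.6 in the CKO solvent culture (1.72). Wfdc18, a small secreted protein with a whey acidic protein domain, was at 36.2, 109 and 74.8 (1.59), and lay nearer to the second solvent culture than to the first. Of the 18 lower genes, 5 were in a list. The lists were chosen with earlier results of these data known, and the share of all measured genes in a list is not given. These counts alone therefore cannot tell whether higher or lower genes were concentrated in the lists, and this was not tested.

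Promoters were searched in the 250 bases before the RefSeq start site, on both strands, for 76 of the 95 higher genes, all 18 lower genes, 6096 measured genes and 27025 genes in all. A match is a run of letters and not a binding site. The full estrogen response element, GGTCANNNTGACC, was in 18 of all genes (0.0666%) and in none of the measured genes. Its single arm AGGTCA, whose last 5 letters open the full element, was in 13.2% of higher genes, 12.7% of measured genes and none of the lower genes. The AP-1 motif was in 17 of 76 higher genes (22.4%) against 5.63% of measured genes and 7.82% of all genes. Among the 17 were Rptn, Prdm1, Serpinb11, Slc6a14, Krtdap and Scel beside the 4 Sprr2 genes, which share ancestry and are not independent. The C/EBP motif was likewise in 17 of 76 (22.4%) against 9.07% of measured and 10.8% of all genes, among them Rnase2b, S100a9, Lcn2, Saa1, Saa3 and Hrnr. CCAAT, the NFY motif, was in 25% of higher, 38.9% of lower and 40.6% of measured genes. CCACACCC, a KLF motif, was in 2.63%, 0% and 4.23%, and AACCGGTT, which Grainyhead-like factors bind, was in 0%, 0% and 0.262%. Median GC content was 54.6% for windows of higher genes, 57.2% for lower and 60.4% for measured genes, and its part in these shares was not tested.

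The E2F motif, TTTGGCGC or TTTCCCGC on either strand, was in 6 of the 18 lower genes (33.3%), against 1.32% of higher, 3.3% of measured and 1.51% of all genes. E2F proteins drive genes of DNA synthesis. The 6 were Pola1, Hells, Phip, Ncapg2, Emsy and Thoc2, and the stretches of the first 3 are printed since they were among the 5 lowest genes. Capitals mark the motif in 90 bases upstream of the RefSeq start (GRCm38.p6), at chrX:93632271-93632360 (minus strand), chr19:38930861-38930950 (plus strand) and chr9:82975547-82975636 (minus strand), each written 5′ to 3′ on the strand of its gene.
Pola1: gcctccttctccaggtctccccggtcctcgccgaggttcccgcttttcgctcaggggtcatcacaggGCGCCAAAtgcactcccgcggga
Hells: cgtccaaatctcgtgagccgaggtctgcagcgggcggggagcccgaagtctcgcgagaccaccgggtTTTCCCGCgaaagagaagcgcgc
Phip: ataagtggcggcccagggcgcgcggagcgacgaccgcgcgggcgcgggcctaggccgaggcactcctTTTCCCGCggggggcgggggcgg
The motif lay 138, 62 and 80 bases before the start site, and in Pola1 it reads on the opposite strand.

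The same drug in cells with CreER was set beside these values, because CKO 4OHT minus CKO EtOH shares no array with the control comparison. That difference also holds what Cre did to the floxed gene. It had 133 genes higher, 1.78% of those measured, and 139 lower, 1.86%. Of the 95 genes higher with the drug in control cells, 24 were also higher with it in CKO cells, which is 25.3% of the first list and 18% of the second. A further 20 were lower there, 21.1% and 14.4% of the lists, and 51 were neither. None of the 18 genes lower in control cells passed 2-fold in CKO cells, where they ran from -0.91 to 0.52 with a median of 0.01.

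Genes higher in both genotypes included proteases, lipid enzymes and pumps. Atp12a was at 18.9 in CKO EtOH and 120 in CKO 4OHT, a difference of 2.67 beside 1.95 in control cells. Cst6 was at 39.5 and 312 (2.98 beside 1.37), and Defb3 at 138 and 455 (1.72 beside 2.29). Klk6 (1.91 beside 1.19), Klk8 (1.77 beside 1.22), Alox12b (1.64 beside 1.33), Krt23 (1.58 beside 1.69), Tgm1 (1.56 beside 1.51) and Gjb6 (1.29 beside 1.53) were alike in direction. Degs2 and Ugcg, which make barrier lipids, also passed 2-fold in both, at 1.23 and 1.20 in CKO cells.

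Genes higher in control cells and lower in CKO cells were mainly envelope and secreted defence genes. Rptn was at 54.5 in CKO EtOH and 3.82 in CKO 4OHT (-3.83 beside 1.74), and Hrnr at 28.2 and 10.5 (-1.43 beside 1.51). Of the 9 Lce genes, 7 were lower in CKO cells, and the median of the family was -1.30 there beside 1.06 in control cells. Rnase2b, at 14.6 and 6.09, Sprr2f, at 20.4 and 7.70, and Prdm1 itself were also lower with the drug in CKO cells. Values under about 10 are dim on these arrays, so the size of such differences is imprecise. The envelope scaffold list, by contrast, had positive medians in both genotypes, 0.68 in CKO cells and 1.01 in control cells. With 1 array a group the difference between the genotypes could not be tested.

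**Figure D5:**
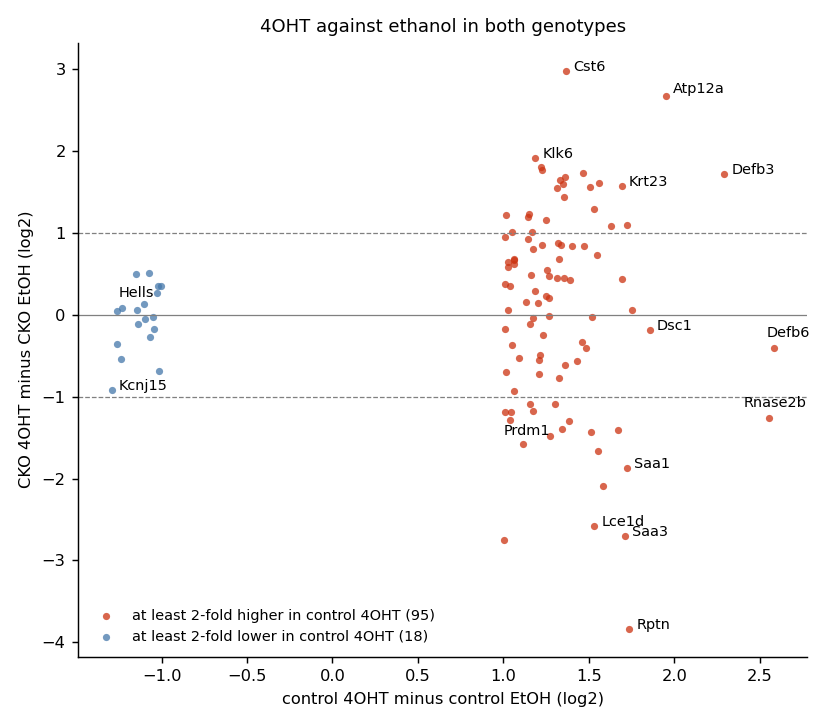
Log2 difference with the drug in control cells (horizontal axis) against that in CKO cells (vertical axis) for the 95 genes at least 2-fold higher (red) and the 18 at least 2-fold lower (blue) in control cells, 1 point per gene. Dashed lines mark 2-fold in CKO cells. The red points spread from Cst6 at 2.98 down to Rptn at -3.83, and the blue points stay between the dashed lines.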

How the data were processed

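The deposited table holds the authors' intensity for 22626 probe sets of the Affymetrix Mouse Expression Array 430A on 4 arrays, on a linear scale. The intensities were made with RMA, which corrects background, normalizes arrays to one distribution and summarises probe sets, per the submitters' processing notes, which name no version here. Normalization to one distribution removes a shift shared by most transcripts, and the table has no detection calls.

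Python 3.11.15 with numpy 2.4.6 and pandas 2.3.3 was used. Log2 was taken with no pseudocount. By the platform annotation, 20380 probe sets named 1 gene, 691 several and 1555 were not listed. A gene was its probe set with the highest mean log2 value (12393 genes) and entered the analysis if at least 1 array was at or above 20.04, the median of the table (7461 measured genes). Differences of at least 2-fold were counted. With 1 array a group there was no test. The counting steps were run on simulated data with 3-fold shifts and less spread than between the solvent arrays. That run checks the code and says nothing on how reliable the calls are. Members and gene lists were chosen with earlier results of these data known, and a list was described from 5 measured members, except the S100-fused proteins, whose 2 measured genes are named and joined to the differentiation block. Named genes were Prdm1 and Esr1, the 15 highest and 15 lowest, the 10 furthest above and 5 furthest below both solvent arrays, and per list up to 6 members past 2-fold each way, or else the 2 brightest; other genes were named after their values were seen. Promoters and gene order came from RefSeq tables of GRCm38.p6. Alternatives changed the level filter, the normalization, a pseudocount, the choice of probe set, the solvent array and the fold.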

Additional observations from a re-analysis of the deposited data

Results flagged for a closer look

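For 15 of the genes named by rule the drug array was at least 2-fold above its solvent array in control cells and at least 2-fold below it in CKO cells. Over all 95 higher genes there were 20, so the values below are not a full ranking. Igfbp3 (1.00 in control cells and -2.75 in CKO cells) is 1 of those left out. The difference between the genotypes, CKO minus control, was -5.57 for Rptn, -4.41 for Saa3, -4.11 for Lce1d, -3.82 for Rnase2b and -3.67 for Wfdc18. It was -3.6 for Saa1, -3.22 for Wfdc12, -3.08 for Sprr2f, -2.94 for Hrnr and -2.75 for Lce1a2. It was -2.74 for Prdm1, -2.7 for Lce1i, -2.68 for Lce1b, -2.23 for Lce1h and -2.2 for Aldoc. These differences were not tested, since each of the 4 groups had 1 array. Several rest on dim CKO 4OHT values, such as 3.82 for Rptn, 5.2 for Saa1 and 6.09 for Rnase2b, so their size is imprecise.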

How the results depend on the processing

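All alternatives were listed with the design. Of 945 values of named genes under alternatives, 782 moved by less than 0.211, the spread over genes between the solvent arrays, 162 by more, and 1 reversed: Cds2 was at 0.202 without cross-hybridising probe sets. Of 333 list medians, 20 moved.

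The main counts were 95 higher, 18 lower, 42 above and 2 below both solvent arrays. A pseudocount of 16 gave 63, 0, 23 and 0, a 1.5-fold line 295, 292, 140 and 37, and a 3-fold line 15, 0, 6 and 0. The filter at the 75th percentile gave 80, 8, 35 and 1, and median centring 103, 13, 43 and 1. With CKO EtOH as the solvent array 49 were higher and 3 lower, of which 42 and 2 were among the first counts. With the mean of both solvent arrays 68 were higher and 4 lower, of which 65 and 4 were among the first counts. With the mean of all probe sets 88 were higher and 12 lower, of which 86 and 11 were among them.

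List medians with no level filter were 0.64 (envelope scaffold), 0.648 (kallikreins), 0.223 (serpins) and 0.498 (antimicrobial). With the brighter filter they were 1.266 (IL-1 and IL-36) and -0.404 (clock). With the pseudocount they were 0.589 (kallikreins) and 1.105 (antimicrobial), with the mean of all probe sets 0.27 (serpins), and without cross-hybridising probe sets 1.271 (late cornified envelope). Against CKO EtOH they were 0.325 (suprabasal keratins), 0.732 (envelope scaffold), 0.518 (kallikreins), 0.188 (serpins), 0.558 (antimicrobial), 0.415 (IL-1 and IL-36), -0.188 (DNA replication) and 0.124 (interferon). Against the mean of both solvents they were 0.555 (suprabasal keratins) and 1.0 (antimicrobial). The cause of these shifts was not tested, and no alternative moved the median of all genes by more than 0.053. No paired analysis was possible because each group had 1 array and the labels carry no replicate numbers. Dim genes and 1 array a group limit every value.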

Other observations

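The 36 higher genes outside the lists held further genes of the upper epidermis, named here after their values were seen. Trex2 and Dnase1l2, nucleases that degrade DNA in cornifying cells, were at 67.4 and 65.8 in control EtOH, 157 and 156 in control 4OHT, and 73.8 and 54.2 in CKO EtOH. Both lay at least 2-fold above both solvent cultures, as did Gsdma (41.9, 111 and 44.3), a gasdermin of the epidermis, and Psors1c2 (31.9, 73.9 and 34.3), the neighbour of Cdsn. Gdpd1, Gdpd2 and Gdpd3, related phosphodiesterases, differed by 1.39, 1.05 and 1.32 between the control cultures. Tmem45a and Tmem45b, related membrane proteins, differed by 1.35 and 1.55, and Ly6g6c and Lypd3, surface proteins of the Ly6 type, by 1.56 and 1.13.

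Glrx, the redox enzyme glutaredoxin, was at 303 in control EtOH, 728 in control 4OHT and 300 in CKO EtOH (1.27), and Hpgd, which inactivates prostaglandins, at 232, 576 and 279 (1.31). Igfbp2 and Igfbp3, carriers of insulin-like growth factors, were at 521 and 399 in control EtOH and 1111 and 797 in control 4OHT. They were at 754 and 672 in CKO EtOH, so the second solvent culture lay between the others. In CKO cells the drug array of Igfbp3 was 2.75 below the solvent array (672 and 99.9).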
